A study of Homo sapiens with 4 samples.

Results

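Glycolysis and the response to low oxygen were examined through 39 genes listed by function: the glucose and lactate transporters, the glycolytic enzymes, the regulators of their flux, the hypoxia-inducible factor (HIF) subunits with their prolyl hydroxylases, and further HIF target genes. Members were all probe sets of the array annotated to exactly one gene where that gene was on the list. This gave 120 of 49395 probe sets, which stood for 36 of 18132 measured genes. SLC16A1, SLC16A3 and CA9 were not analysed here, nor were 3 probe sets that named ENO1 or PFKFB4 together with another gene.

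The study compared 2 groups of LNCAP, an androgen-responsive human prostate cancer cell line grown in medium with serum. Cells of the exosome group (2 arrays) received exosomes, small vesicles that cells shed, from PC-3, another human prostate cancer line, which does not need androgen to grow. Cells of the control group (2 arrays) received PBS, a buffer, and no other agent is named for either group. The sources used here give no dose, time of exposure or oxygen tension. Separate cultures behind the 2 arrays of a group are not stated either, so the p-values measure only the spread between these samples, which may be technical.

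Glycolysis splits glucose into pyruvate, and lactate dehydrogenase turns pyruvate into lactate when it does not enter mitochondria. HIF is a transcription factor made of an oxygen-sensitive alpha subunit (HIF1A or EPAS1) and the constant partner ARNT. With oxygen present, the prolyl hydroxylases EGLN1 and EGLN3 mark the alpha subunit for destruction through VHL. Without it, the subunit persists and binds the hypoxia response element in its target genes, which include many glycolytic enzymes as well as genes for blood vessel growth, collagen hydroxylation and mitochondrial turnover. The control lies chiefly in protein stability, which an mRNA array does not measure.

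The core of the hypoxia response element, ACGTG, was looked for on both strands of the 250 bases before the start listed first for each gene (RefSeq, GRCh38.p14). Any other start of a gene was not searched. VEGFA, PFKFB2 and HILPDA had no such window and were not searched. Of 33 measured members with such a window, 12 held this core (36.4%), against 18.7% of all 27305 windows in the table and 21% of those of measured genes. It was held by 7 of 16 glycolytic enzymes (43.8%) and by 3 of 8 other HIF targets (37.5%). The element is also part of CACGTG, the E-box bound by other factors, and a CACGTG counts here on both strands. Each match is a match of letters in this window and no evidence of binding. The windows of the 3 members with the most matches are shown. Capitals mark the matches on either strand, and all are read 5′ to 3′ along the gene.

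The ALDOC window lies at chr17:28576896-28577145, minus strand, and held 3 matches at 2 places.
ALDOC: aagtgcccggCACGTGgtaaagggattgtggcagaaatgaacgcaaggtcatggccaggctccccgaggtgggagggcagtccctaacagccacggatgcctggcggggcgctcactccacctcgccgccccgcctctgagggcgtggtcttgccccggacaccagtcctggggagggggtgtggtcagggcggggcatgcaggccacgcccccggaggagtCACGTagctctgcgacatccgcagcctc
The LDHA window lies at chr11:18394313-18394562, plus strand, and held 5 matches at 3 places.
LDHA: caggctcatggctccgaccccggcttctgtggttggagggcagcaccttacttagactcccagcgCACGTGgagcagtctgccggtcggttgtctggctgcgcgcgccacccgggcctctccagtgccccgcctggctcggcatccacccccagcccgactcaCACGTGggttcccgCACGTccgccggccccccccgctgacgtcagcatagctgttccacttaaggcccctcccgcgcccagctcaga
The ANKRD37 window lies at chr4:185396591-185396840, plus strand, and held 3 matches at 2 places.
ANKRD37: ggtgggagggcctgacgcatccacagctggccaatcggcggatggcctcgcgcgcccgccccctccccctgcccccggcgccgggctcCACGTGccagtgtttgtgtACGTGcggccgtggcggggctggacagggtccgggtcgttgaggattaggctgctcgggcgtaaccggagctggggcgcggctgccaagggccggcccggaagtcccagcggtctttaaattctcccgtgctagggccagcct

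The arrays were close to each other, with median intensities of 110.8 to 112.4, and their number limits the precision. The 3′ to 5′ signal ratio of beta-actin, which rises as RNA degrades, was 6.82 and 5.39 in the exosome group and 5.74 and 7.17 in the PBS group, so the groups overlapped. Of 8 LNCAP markers 7 were measured, and KLK3, which encodes PSA, stood at 13847 to 14526 on the 4 arrays. The 7 summed to 37609 and 38552 with exosomes and to 37598 and 37704 with PBS, and 0 of them passed the test. TRPM8 (log2 fold change 0.31) and TMPRSS2 (0.14) were higher at an unadjusted limma p below 0.05, and none was lower. Among all genes 5.76% were higher and 5.16% lower at that level. Of 12 markers of PC-3 all were measured and none was at 0, but the background controls of the arrays themselves averaged 48.4 to 49.9. CAV2, PLAU and ANXA1 read below that mean on every array, and AXL, KRT7, TGFBI and CD44 read close to it. The 12 summed to 1634 and 1720 with exosomes and to 1576 and 1588 with PBS. Without CXCL8, though, the other 11 summed to 1309 and 1329 with exosomes and to 1357 on each PBS array. Most of that sum came from VIM, LOX and IL6. Of the 12 markers 6 had a log2 fold change above 0 and 6 below. CXCL8 alone among them passed (log2 fold change 0.66, SE 0.091, limma adjusted p = 0.013). That call was lost without exosome replicate 2 (limma adjusted p = 0.131), PBS replicate 1 (0.126) or PBS replicate 2 (0.136), and with the replicate number as a block (0.160). It was also lost without a variance trend (limma adjusted p = 0.099), as the mean of probe sets (0.056) and with every probe set tested (0.055). The part of PC-3 RNA in the members' values was not tested.

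None of the 36 members passed the test in either direction. Over all genes, limma called 128 higher (0.706%) and 34 lower (0.188%) with Benjamini-Hochberg adjusted p below 0.05, a balance that turned to 60 higher and 328 lower with the arrays centred on their spike-ins. Before adjustment, at p below 0.05, 5 of 36 members were higher (VEGFA, ALDOC, P4HA2, HK1 and MXI1) and 1 was lower (PDK3), or 13.9% and 2.78%, beside 5.76% higher and 5.16% lower of all genes. The exosome arrays lay above both PBS arrays in 14 members (38.9%) and below both in 4 (11.1%), beside 17.8% and 21.9% of all genes. The members were measured more tightly than most genes, with a median SE of 0.056 against 0.078, and 32 of them were at or above the median level of all genes. Among all genes at or above that level 8.80% were higher and 5.49% lower at p below 0.05, beside 15.6% and 3.13% of those 32 members. Without overlap 23.7% of these brighter genes lay above and 20.0% below, beside 40.6% and 12.5% of the 32. Taking every single-gene probe set by itself, 0 of the 120 passed, beside 0.238% higher and 0.02% lower of 44988. Before adjustment 10 of the 120 were higher and 1 lower at p below 0.05, beside 4.73% and 4.14% of all single-gene probe sets. Of those 10, 7 belonged to ALDOC (4) and VEGFA (3), so they are not 10 separate genes.

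Of the 36 members 22 had a log2 fold change above 0. Centring the arrays on their poly-A spike-ins, added controls, lowers the log2 fold change of every gene by 0.14, so the sign of small positive values depends on this choice: 16 members turned below 0 and 6 stayed above it, namely ALDOC, PFKFB2, PDK1, VEGFA, P4HA2 and MXI1. The mean log2 level of the spike-ins was 6.94 and 7.02 on the exosome arrays and 6.90 and 6.77 on the PBS arrays. Arrays within a group thus differed too, so the shift of 0.14 is itself uncertain.

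**Figure D1:**
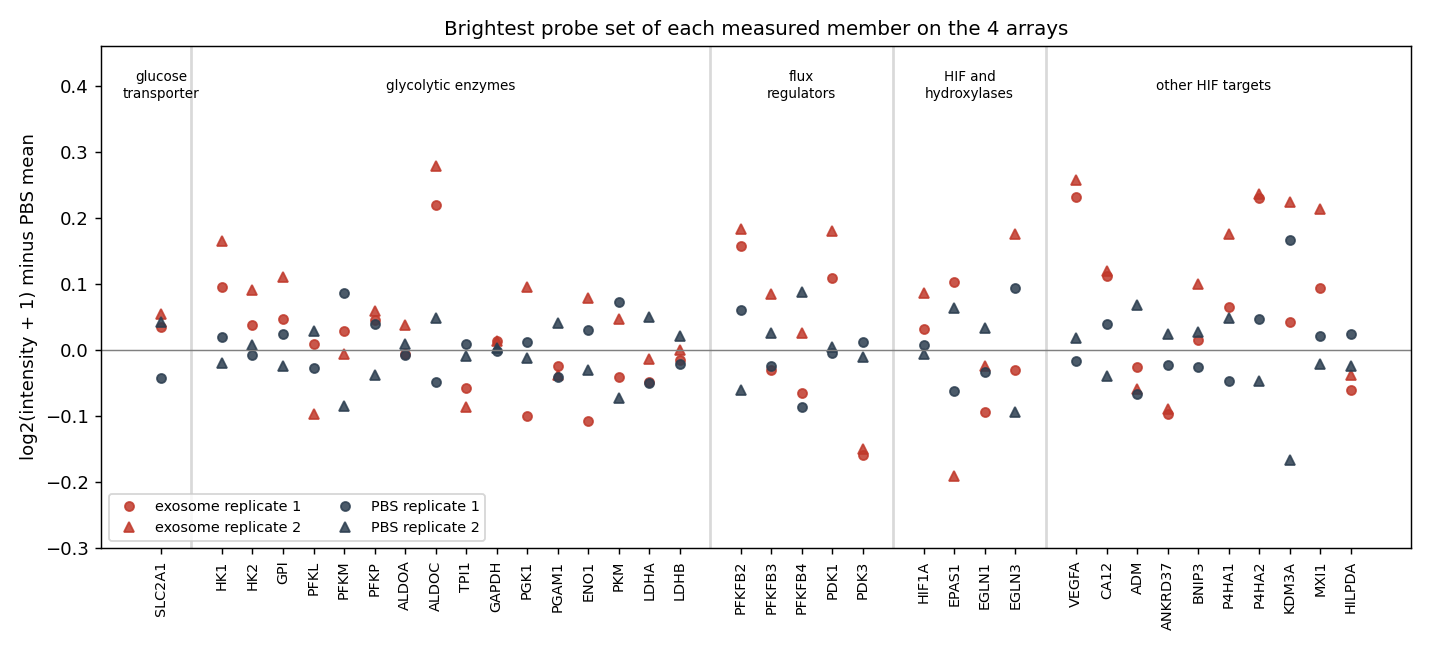
Brightest probe set of each of the 36 measured members on the 4 arrays, as log2(intensity + 1) minus the mean of the 2 PBS arrays, grouped by role; circles are replicate 1 and triangles replicate 2, red exosome and dark PBS. Both exosome arrays lie clearly above PBS in ALDOC, VEGFA and P4HA2 and below it in PDK3, while most glycolytic enzymes scatter around 0.

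The members' count changed when the fit was made on the brighter genes alone, which alters both the number of tests and the variance model. Among the 9066 genes at or above the median level 2.35% were called higher and 0.916% lower, and 2 of 32 members passed there, VEGFA (limma adjusted p = 0.026) and ALDOC (limma adjusted p = 0.036), both higher. Their fold changes were the same as in the fit over all genes. Their unadjusted p-values in limma were 6.1e-04 for VEGFA and 9.87e-04 for ALDOC, against 8.27e-04 and 0.00165 in the fit over all genes.

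Among the transporters, SLC2A1, the basal glucose carrier GLUT1, read 669 and 678 with exosomes and 634 and 673 with PBS. One PBS array thus lay between the exosome arrays. The log2 fold change was 0.04, with a 95% interval of -0.08 to 0.17, and it was -0.10 centred on the spike-ins.

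None of the 16 glycolytic enzymes passed the test. Of these 9 were above 0 and 7 below, and the median log2 fold change was 0.01. Before adjustment 2 were higher and 0 lower at p below 0.05, beside 5.76% and 5.16% of all genes. The median of all genes was -0.01, and with the arrays centred on their poly-A spike-ins the enzymes' median was -0.13 and that of all genes -0.15. Apart from ALDOC, no enzyme had a 95% interval that reached above 0.23 (HK1) or below -0.18 (PFKL), and the SE had a median of 0.046.

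GAPDH, which oxidises glyceraldehyde phosphate, read 25868 and 25866 with exosomes and 25584 and 25672 with PBS. Its exosome arrays lay just above the PBS arrays, by 0.01 on the log2 scale (95% interval -0.05 to 0.08), which turns below 0 with spike-in centring. The 3 control probe sets along GAPDH, left out of the test, gave a 3′ to 5′ ratio of 1.32 to 1.35 on the 4 arrays. PGK1, which forms ATP downstream of GAPDH, read 8539 and 9778 on the exosome arrays and 9230 and 9073 on the PBS arrays. The exosome arrays were the lowest and the highest of the 4, and the log2 fold change was -0.002 (95% interval -0.13 to 0.13). Its 9 probe sets split into 4 above 0 and 5 below, with none free of overlap. LDHA, the dehydrogenase that makes lactate and one of the windows shown, read 18127 and 18554 on the exosome arrays and 18105 and 19399 on the PBS arrays. In this brightest probe set the groups overlapped, at a log2 fold change of -0.03 (95% interval -0.12 to 0.05). All 4 of its probe sets were below 0, and in 2 of them the exosome arrays lay below PBS without overlap. LDHB was at -0.01, ALDOA, the main muscle-type aldolase, at 0.02 and PKM, pyruvate kinase, at 0.003. Of 6 PKM probe sets 5 were below 0, and 2 of the 6 read below the mean of the background controls. As the mean of all 6 PKM was at -0.08 (limma adjusted p = 0.816).

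ALDOC, an aldolase best known from brain and a HIF target, had the highest log2 fold change of the 36 members by the brightest probe set, though within its error of that of VEGFA. It read 1024 and 1067 with exosomes and 851 and 910 with PBS, so both exosome arrays were above both PBS arrays. That is a 1.19-fold higher level (log2 0.25, SE 0.056, limma adjusted p = 0.106), with a 95% interval of 0.12 to 0.38. All 5 of its probe sets were above 0, at 0.05 to 0.25, and 4 were free of overlap. As the mean of those probe sets the log2 fold change was 0.18 (limma adjusted p = 0.318), below the 0.23 of P4HA2 on that measure. Centred on the spike-ins the log2 fold change of the brightest probe set was 0.11.

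HK1, the hexokinase that traps glucose in most cells, read 3189 and 3344 with exosomes and 3026 and 2943 with PBS. Its groups did not overlap (log2 0.13, SE 0.043, limma adjusted p = 0.296), its 4 probe sets were all above 0, and centred on the spike-ins it turned to -0.01. HK2, the inducible hexokinase, was at 0.06 and GPI, which isomerises glucose phosphate, at 0.08, both without overlap between groups and both below 0 with spike-in centring. TPI1, triose phosphate isomerase, went the other way, with 9316 and 9130 under exosomes and 9761 and 9637 under PBS. Both exosome arrays were below both PBS arrays in each of its 3 probe sets, at a log2 fold change of -0.07 in the brightest (SE 0.033, limma adjusted p = 0.474). The phosphofructokinases PFKL, PFKM and PFKP were at -0.04, 0.01 and 0.05, and PGAM1 and ENO1, of the lower pathway, at -0.03 and -0.01.

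Regulators of flux differed among themselves, and 0 of 5 passed. Before adjustment 0 were higher and 1 lower at p below 0.05, beside 5.76% and 5.16% of all genes. PDK1 and PDK3 are kinases that switch off pyruvate dehydrogenase and so keep pyruvate out of mitochondria. PDK3 read 525 and 528 on the exosome arrays and 591 and 581 on the PBS arrays. The arrays of each group sat close together and apart from the other group, 1.11-fold lower with exosomes (log2 -0.15, SE 0.056, limma adjusted p = 0.336). With spike-in centring it was at -0.29 (limma adjusted p = 0.054). PDK1, the kinase known as a HIF target, read 341 and 358 with exosomes and 315 and 317 with PBS. It was higher on both exosome arrays (log2 0.14, SE 0.065, limma adjusted p = 0.463), opposite to PDK3 in sign.

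The PFKFB enzymes set the level of a fructose bisphosphate that drives phosphofructokinase. PFKFB2 read 174 and 177 with exosomes and 163 and 150 with PBS (log2 0.17, SE 0.079, limma adjusted p = 0.478). Of its 6 probe sets 4 read below the mean of the background controls, and the other 2 were above 0. PFKFB4, a strongly hypoxia-induced member of the family, read 455 and 485 on the exosome arrays and 449 and 506 on the PBS arrays. The PBS arrays enclosed the exosome arrays, at a log2 fold change of -0.02 (95% interval -0.19 to 0.15). PFKFB3, which is induced by hypoxia too, was at 0.03 in its brightest probe set. Of its 4 probe sets 3 were below 0, 1 of them without overlap, and 2 of the 4 read below the background controls.

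The HIF subunits and hydroxylases had a median log2 fold change of 0.01 (-0.13 centred on the spike-ins), with 2 of 4 above 0 and none past the test (before adjustment, 0 in either direction at p below 0.05). HIF1A read 4460 and 4636 on the exosome arrays and 4386 and 4345 on the PBS arrays. The groups did not overlap in this probe set (log2 0.06, 95% interval -0.03 to 0.15, limma adjusted p = 0.646), and centred on the spike-ins it turned to -0.08. Of all 8 HIF1A probe sets 7 were above 0 and 1 below. As their mean the log2 fold change was 0.12 (limma adjusted p = 0.830). The 7 besides the brightest were dimmer and overlapped, and 1 of them read below the background controls. One of them read 176 and 278 with exosomes and 208 and 164 with PBS. In each of these 7 dimmer probe sets exosome replicate 2 and PBS replicate 1 read higher than the other arrays. Those arrays had the lower beta-actin ratios of 5.39 and 5.74, and the part of RNA quality in this was not tested. EPAS1, which encodes HIF-2 alpha, read 71.8 and 58.4 with exosomes and 63.9 and 69.8 with PBS, close to the mean of the 23 background controls (48.4 to 49.9). Its groups overlapped.

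EGLN1, the main oxygen sensor of the pathway, read 784 and 823 with exosomes and 818 and 856 with PBS, a log2 fold change of -0.06 with overlap. Its other 2 probe sets were above 0, and as the mean of its 3 probe sets EGLN1 was at 0.01 (limma adjusted p = 0.981). EGLN3, a hydroxylase that HIF itself induces, read 89.97 and 104 on the exosome arrays and 98.1 and 86.0 on the PBS arrays. The groups overlapped (log2 0.07, 95% interval -0.16 to 0.31), and the value turns below 0 with spike-in centring.

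**Figure D2:**
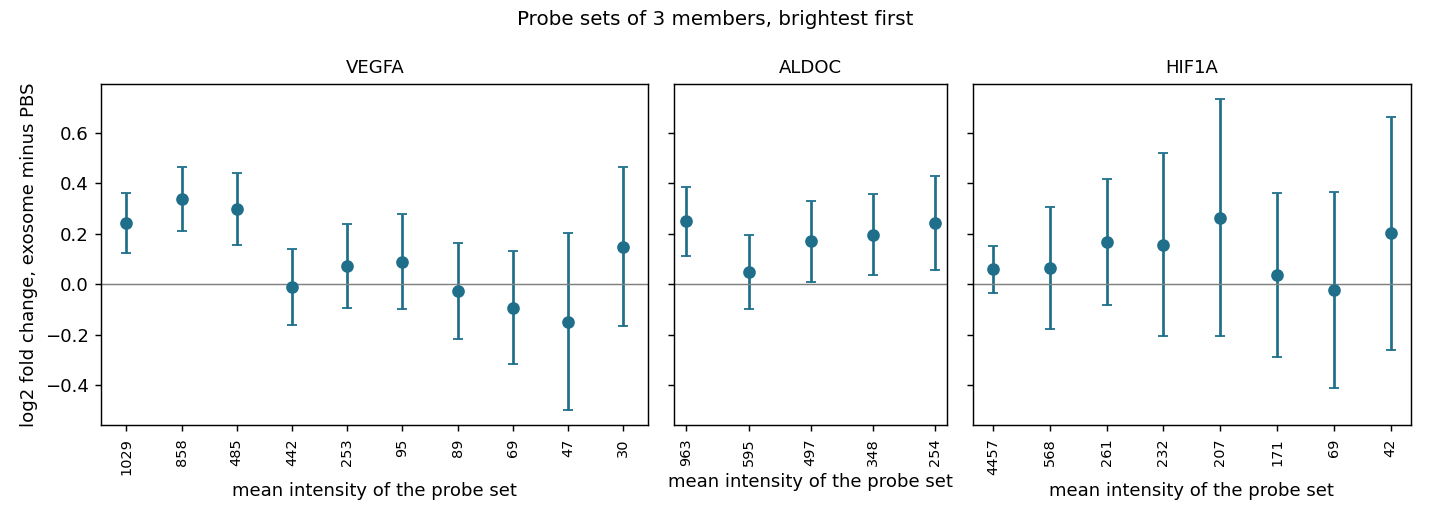
Log2 fold change (exosome minus PBS) of each probe set of VEGFA, ALDOC and HIF1A with its 95% limma interval, ordered by mean intensity, which labels the horizontal axis. The 3 brightest VEGFA probe sets and 4 of 5 of ALDOC stand clear of 0 before adjustment, while the dimmer probe sets of VEGFA spread around it. Of the 8 HIF1A probe sets 7 are above 0 and 1 below, all with intervals that include 0.

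The other HIF targets had the highest median of the role groups with several members, 0.12, which was -0.02 with the arrays centred on the spike-ins. Of 10 measured 7 were above 0 and 3 below, and none passed the test. Before adjustment 3 were higher and 0 lower at p below 0.05, beside 5.76% and 5.16% of all genes. In 5 the exosome arrays were above both PBS arrays and in 2 below, beside 17.8% and 21.9% of all genes.

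VEGFA, the growth factor that starts new blood vessels, came nearest to the threshold. It read 1106 and 1125 on the exosome arrays and 931 and 953 on the PBS arrays. The arrays within a group differed far less than the groups did, a 1.18-fold higher level with exosomes (log2 0.24, SE 0.050, limma adjusted p = 0.069) and a 95% interval of 0.13 to 0.36. Centred on the spike-ins the log2 fold change was 0.10. The next brightest probe set read 958 and 959 with exosomes and 775 and 741 with PBS (log2 0.34), and the third 548 and 522 with exosomes and 432 and 437 with PBS (log2 0.30). In all 3 the groups stood apart in the same direction, and in the test of every probe set the smallest adjusted p of any member was that of the second, 0.077. Of the remaining 7 VEGFA probe sets 2 read below the background controls. The other 5 had log2 fold changes from -0.09 to 0.09, and in 2 of them the exosome arrays lay above PBS without overlap. In the fourth brightest the groups overlapped, at 436 and 445 with exosomes and 431 and 458 with PBS. As the mean of all 10 probe sets, those 2 included, VEGFA had a log2 fold change of 0.09 (limma adjusted p = 0.698). Which transcript parts the probe sets cover is not known here.

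P4HA1 and P4HA2 are catalytic subunits of the prolyl hydroxylase that stabilises collagen. P4HA2 read 344 and 346 with exosomes and 303 and 284 with PBS. Its exosome arrays were nearly equal and above both PBS arrays (1.18-fold, log2 0.23, SE 0.067, limma adjusted p = 0.211), by 0.09 (log2) with spike-in centring. P4HA1 was at 0.12 (SE 0.058), also without overlap, and turns below 0 with spike-in centring. MXI1, an antagonist of MYC, read 1468 and 1595 with exosomes and 1396 and 1356 with PBS (log2 0.15, SE 0.054, limma adjusted p = 0.326), with 3 of 5 probe sets above 0, 2 of the 5 being close to the background controls. Its log2 fold change was 0.03 as the mean of probe sets and 0.01 with spike-in centring. CA12, a membrane carbonic anhydrase, was at 0.12 without overlap, while KDM3A, a histone demethylase, was at 0.13 with an SE of 0.11 and overlapping arrays; both turn below 0 with spike-in centring.

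The remaining targets stood near 0 or below it. ANKRD37, one of the windows shown, read 569 and 572 with exosomes and 599 and 619 with PBS. Both exosome arrays were below both PBS arrays (log2 -0.09, 95% interval -0.22 to 0.03, limma adjusted p = 0.601), and its second probe set read below the background controls. HILPDA, a lipid droplet protein, was at -0.05, below PBS without overlap in both of its probe sets. ADM, the vasodilator adrenomedullin, read 144 and 141 with exosomes and 140 and 154 with PBS, a log2 fold change of -0.04 with overlap. BNIP3, a mitophagy receptor, read 5954 and 6314 with exosomes and 5784 and 6002 with PBS. Its arrays overlapped at 0.06 (95% interval -0.04 to 0.15), and centred on the spike-ins it was at -0.08.

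**Figure D3:**
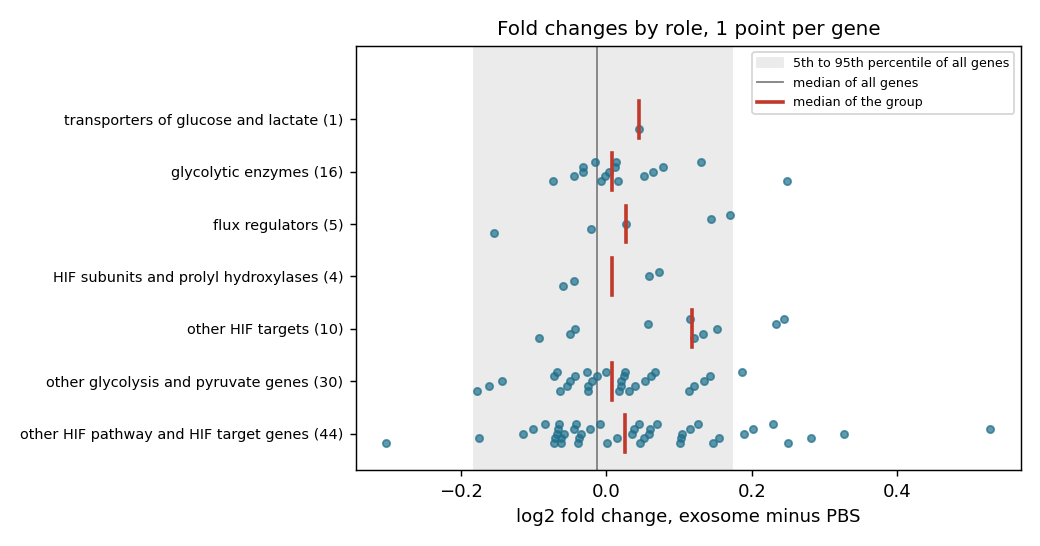
Log2 fold change (exosome minus PBS) of each measured gene by role, with group sizes in brackets, group medians in red, and the median and the 5th to 95th percentile of all 18132 genes in grey. The medians of the glycolytic enzymes and of the other HIF targets are 0.01 and 0.12 (-0.13 and -0.02 centred on the spike-ins), and the point at 0.53 is DDIT4.

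Set side by side, the glycolytic enzymes and the other HIF targets differed by 0.11 in median log2 fold change (0.01 and 0.12). Centring on spike-ins shifts all genes of an array alike, so it could not change this difference. Centred over the 4 arrays, the mean log2 level of the other HIF targets was 0.02 and 0.07 on the exosome arrays and -0.03 and -0.05 on the PBS arrays. That of the enzymes was -0.01 and 0.03 on the exosome arrays and -0.01 and -0.02 on the PBS arrays. The targets minus the enzymes were 0.02 and 0.04 with exosomes and -0.02 and -0.04 with PBS, so the groups did not overlap on this measure. It is a mean over genes picked with earlier results known, and no test was made of it. The difference in medians fell to 0.06 with the mean of probe sets, to 0.05 without exosome replicate 2 and to 0.07 without PBS replicate 2. It was 0.10 without exosome replicate 1 and 0.10 without PBS replicate 1.

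**Figure D4:**
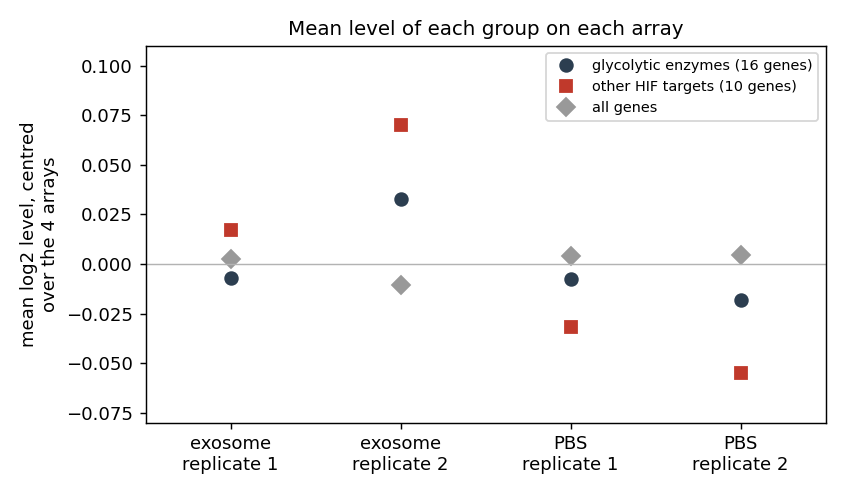
Mean log2 level of the 16 glycolytic enzymes, the 10 other HIF targets and all genes on each array, each centred over the 4 arrays. The other HIF targets stand at 0.02 and 0.07 on the exosome arrays and at -0.03 and -0.05 on the PBS arrays, a wider gap than that of the enzymes.

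Genes of the same pathways outside the 39 were read from the same fit. Of 34 further genes of glycolysis and pyruvate handling 30 were measured, 15 above 0 and 15 below, with a median of 0.01 and 0 past the test. Before adjustment 1 was higher and 0 lower at p below 0.05, beside 5.76% and 5.16% of all genes. The smallest p-values were those of PGM1, which links glycogen to glycolysis, at 0.19 (limma adjusted p = 0.262), and SLC2A10, a glucose carrier, at -0.18 (limma adjusted p = 0.476).

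Of 47 further genes of the HIF pathway and HIF targets 44 were measured, 24 above 0 and 20 below, with a median of 0.03. One rose and none fell, beside 0.706% and 0.188% of all genes. Before adjustment there were 9 higher and 1 lower at p below 0.05, beside 5.76% and 5.16% of all genes. The gene that rose was DDIT4 (REDD1), an inhibitor of mTORC1 that hypoxia induces and that other stresses induce as well. It read 2609 and 2808 with exosomes and 1905 and 1850 with PBS. Both exosome arrays were far above both PBS arrays, 1.44-fold (log2 0.53, SE 0.049, limma adjusted p = 0.0019). The call was lost without PBS replicate 2 (log2 0.51, limma adjusted p = 0.0503), with the replicate number as a block (limma adjusted p = 0.104) and without a variance trend (limma adjusted p = 0.067). The median of this wider list was below that of the other HIF targets among the 39 (0.03 against 0.12).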

How the data were processed

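RNA of 4 samples was hybridised to Affymetrix arrays. The values are normalized intensities on a linear scale, 1 per probe set, as deposited by the authors; MAS5 and RMA appear in the submitters' processing notes, with role, order, versions and genome build not given in the sources used here. No scaling was added, since values of equal rank were within 0.065 (log2) of each other across arrays. The labels' RNA extraction text speaks of another tissue than LNCAP, and groups follow the sample labels.

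Of 49395 probe sets 102 were controls, 44988 named 1 gene (platform annotation), 1832 several and 2473 none. The probe set with the highest mean stood for each of 18132 genes. Levels were log2(value + 1), so folds are on that scale. limma 3.58.1 in R 4.3.3 (lmFit, eBayes with a trend, two-sided) was fitted to all genes, with Benjamini-Hochberg adjustment over all of them and a threshold of 0.05. An exact permutation test of 2 against 2 cannot go below 0.333, so p-values rest on the variance model, with 2 residual and 7.02 prior degrees of freedom. The fit was tested on simulated data. Figures were drawn with matplotlib 3.10.9.

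Members, roles and further lists were chosen with earlier results of these data known. Values by array are printed for the 3 members of each role with the smallest p and for 13 listed by name, of which CA9 was not analysed here. From further lists, members past the threshold or else the 2 with the smallest p are named. Alternatives were quantile normalization, centring on 24 poly-A spike-in probe sets, 16 as pseudocount, only the brighter genes (mean at or over the median), the mean of probe sets, every probe set, eBayes without a trend, a block for replicate number, and each array left out in turn.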

Additional observations from a re-analysis of the deposited data

How the results depend on the processing

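The depth of these data is set by 2 arrays a group. The members called were 0 higher and 0 lower under each alternative run except the test of the brighter genes alone, where 2 were higher. Over all genes the 128 higher and 34 lower became 60 and 328 centred on poly-A spike-ins, which lowers each log2 fold change by 0.14. They became 213 and 83 with dim genes left out, 18 and 3 without a trend, 69 lower after quantile normalization, 9 lower with every probe set tested, and 26 to 40 higher and 3 to 7 lower with an array left out. The cause of these changes was not tested. With the replicate number as a block (replicate block) 2 genes were higher and 0 lower. Deviations of same-numbered arrays correlated at -0.04 over genes, so the numbers were not taken to pair the arrays.

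Centred on spike-ins the medians were -0.10 for SLC2A1, -0.13 for glycolytic enzymes, -0.11 for flux regulators, -0.13 for HIF subunits and hydroxylases and -0.022 for other HIF targets. With an array left out they ran from 0.0011 to 0.0424 for the enzymes, -0.0308 to 0.0842 for the regulators, -0.0136 to 0.0308 for the HIF subunits and hydroxylases and 0.0535 to 0.147 for the other HIF targets. The HIF subunits and hydroxylases were at 0.026 after quantile normalization, -4.56e-04 without dim genes and 0.0522 as the mean of probe sets, and the other HIF targets at 0.0681 as that mean. For the 21 members with values by array, DDIT4 and CXCL8, the sign turned in 20 of 272 comparisons, in none of which the gene was past the threshold. Spike-in centring turned 6 of these genes, and 16 of all 36 members. The calls of DDIT4 and CXCL8 were lost in 10 comparisons together, and VEGFA and ALDOC were called in 1 each.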
